A study of Mus musculus with 10 samples.

Results

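The insulin receptor, the adaptors and kinases that relay its signal and the FOXO transcription factors at its end were followed as 10 genes in mouse liver RNA-seq: Insr, Irs1, Irs2, Grb10, Pik3r1, Akt1, Akt2, Foxo1, Foxo3 and Foxo4. They were chosen by gene symbol from the 41388 genes of the deposited count files, and all 10 members passed the filter on low counts that left 13444 genes to test. Male C57B/6J littermates of about 12 weeks made up the 3 groups compared: WT Refed (n = 2, fasted 22 h and then refed 2 h), WT Fasting (n = 3, fasted 24 h) and NAMPT LKO Fasting (n = 5, fasted 24 h). The WT mice carried LoxP-flanked Nampt alleles without Cre, and the NAMPT LKO mice carried the same alleles with Albumin-cre, which acts in hepatocytes, so that other liver cells kept the gene. No fed NAMPT LKO mice were analysed here, and no group that had not been fasted was used. The WT comparison therefore sets fasted against refed livers, and does not tell a rise during the fast from a fall on refeeding. The feeding schedule above is that of the sample labels; the study's text describes random feeding and a shorter fast for these groups.

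Insulin released after a meal binds its receptor, a tyrosine kinase on the hepatocyte surface, which phosphorylates the docking proteins IRS1 and IRS2. These recruit phosphoinositide 3-kinase through its regulatory subunit p85α, the product of Pik3r1, and the lipid that this enzyme makes brings AKT kinases to the membrane. AKT phosphorylates FOXO factors and thereby keeps them out of the nucleus, so that in the fasted liver, with little insulin, FOXO factors switch on genes of glucose production and, in a feedback loop, genes of the insulin pathway itself, among them Irs2 and Insr. The control of AKT and FOXO is largely by phosphorylation, which an RNA measurement does not see.

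Libraries held 30603080 to 43434139 counted reads each, and every member except Grb10 had at least 430 reads in every library. Nampt, the deleted gene, stood at 63 to 141 TMM-scaled CPM (the deposited counts as a rate per library, in which library totals are corrected for composition) in the WT Fasting livers, at 67.8 to 78 in WT Refed livers and at 11.8 to 15.3 in NAMPT LKO livers, 7.02-fold lower than in WT Fasting livers (adjusted p = 0.00102, edgeR). The livers expressed all 8 hepatocyte markers, among them albumin, and pancreas, adipose and muscle markers were at or near 0 except Cela1, at up to 7.17 CPM. Of the other cell type markers, none passed an adjusted p of 0.05 between WT Fasting and WT Refed livers or between the fasted groups, while Kdr, Col1a1, Epcam and Spp1 were higher and Cela1 lower in NAMPT LKO Fasting than in WT Refed livers. The summed bile duct markers were at 34.3 to 54.6 CPM in NAMPT LKO Fasting livers, 15.3 to 22.7 in WT Fasting livers and 20.2 to 22.8 in WT Refed livers, so that the NAMPT LKO livers lay above both other groups. The summed endothelial markers were at 248 to 265 CPM in WT Fasting against 225 to 227 in WT Refed livers, and the Kupffer cell and macrophage markers at 241 to 480 against 186 to 231, both without overlap. The NAMPT LKO livers, at 222 to 289 and 168 to 371 CPM, overlapped the refed ones in both lists. The summed stellate cell markers were at 261 to 325 CPM in NAMPT LKO Fasting, above 220 in both WT Refed livers, with WT Fasting livers at 206 to 266. The part of these markers in the comparisons below was not tested. In whole liver, fewer cells of a type and less RNA per cell cannot be told apart. The library of NAMPT LKO mouse 5 stood apart, with a median deviation from the other livers of 0.37 on the log2 scale against 0.13 to 0.24 for the rest, a gradient with the GC content of genes (Spearman's rho -0.59) and 21.1% of its reads on mitochondrial genes against 7.42 to 12.9%. Some results that rest on it are given with and without it. The spreads within groups and the ranges over all fasted livers below are given only with it.

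No member passed the test between fasted and refed WT livers, although several separated the groups. Insr, Irs2, Foxo1, Foxo3 and Foxo4 were higher in each of 3 WT Fasting livers than in both WT Refed livers, Akt1 and Grb10 were lower in each, and Irs1, Pik3r1 and Akt2 overlapped. Such a full separation of 2 from 3 livers was found in 49.7% of all genes tested, and in the higher direction in 24.5%, against 7 of 10 members in either direction and 5 of 10 higher, and the excess over these shares was not tested. In the test, none of the 10 members passed an adjusted p of 0.05 (edgeR's quasi-likelihood test with Benjamini-Hochberg adjustment over all genes), where 7.04% of all genes did; 2 members, Insr and Irs2, had an unadjusted p under 0.05, against 22.3% of all genes. DESeq2 called 1 member, limma's voom with quality weights 2, and edgeR's exact test 0.

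No member was found to differ with loss of hepatocyte NAMPT. When fasted NAMPT LKO livers were set against fasted WT livers, no member passed the adjusted threshold by edgeR, DESeq2 or voom, and none had an unadjusted p under 0.05; across all genes 0.00744% passed, which is Nampt alone, and 6.03% had an unadjusted p under 0.05. Only Grb10 had groups that did not overlap, against 3.99% of all genes. The median of the 10 log2 fold changes was -0.036, against 0.00025 over all genes.

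Set against the same WT Refed livers, the NAMPT LKO Fasting livers had 1 member past the threshold, Insr, where 11.2% of all genes passed, and 4 members (Insr, Irs2, Foxo1 and Foxo3, all higher) with an unadjusted p under 0.05, where 26.1% of all genes had one. Groups did not overlap for 5 members, higher for Insr and Irs2 and lower for Pik3r1, Akt1 and Akt2, against 33.5% of all genes. This comparison and that of WT Fasting with WT Refed livers share their 2 refed livers, so a like result in both is not independent.

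**Figure D1:**
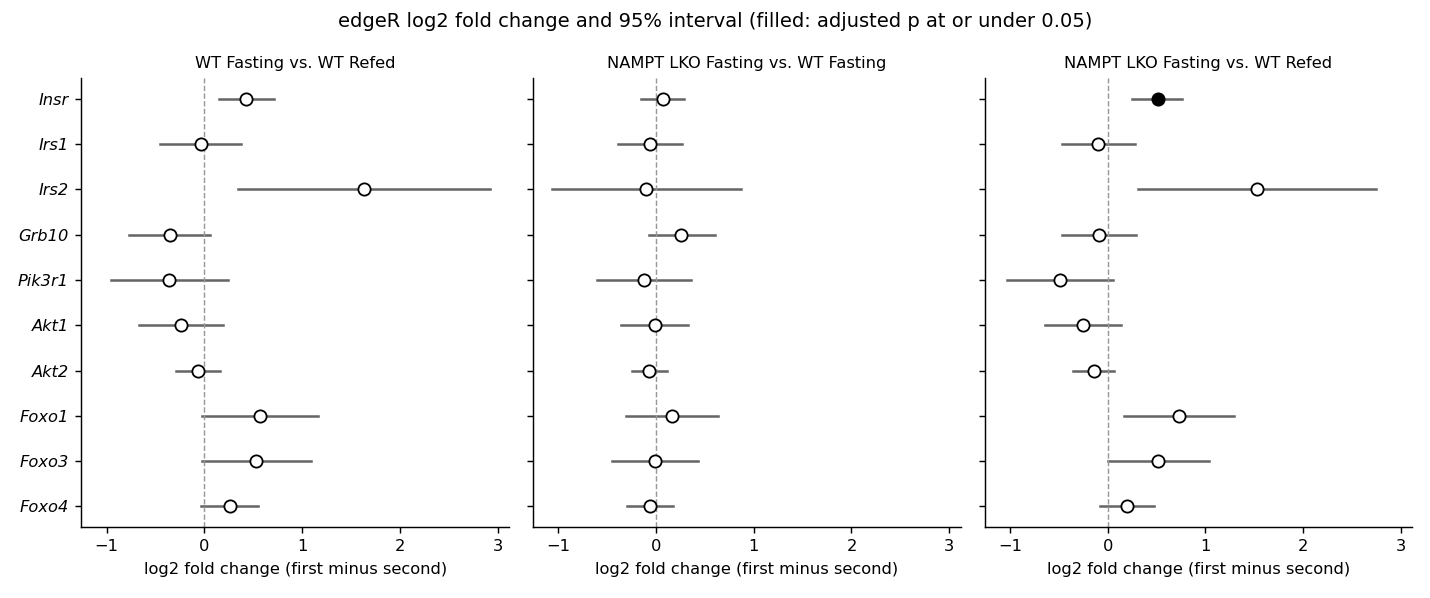
Log2 fold change of each gene (x axis, first group minus second, edgeR) with its 95% interval in the 3 comparisons; filled points passed an adjusted p of 0.05. Insr in NAMPT LKO Fasting against WT Refed livers is the single filled point, the intervals of NAMPT LKO Fasting against WT Fasting livers all cross 0, and Irs2 has the widest interval in each panel.

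Insr encodes the insulin receptor and lies on chromosome 8 from 3150922 to 3279617 on the minus strand (GRCm38). It stood at 93.1 and 95.4 CPM in the WT Refed livers, at 137, 121 and 123 in the WT Fasting livers, and at 126, 134, 146, 118 and 145 in the NAMPT LKO Fasting livers. All 8 fasted livers lay above both refed livers, and the 2 fasted groups overlapped. The difference between WT Fasting and WT Refed livers was 1.35-fold (log2 fold change 0.43, SE 0.13, adjusted p = 0.0661), just short of the threshold. It passed in the fit without NAMPT LKO mouse 5, with an adjusted p of 0.0196, although that mouse is in neither group and enters through the shared estimate of spread; over 19 alternatives the adjusted p ran from 0.00494 to 0.325 and 5 passed. In NAMPT LKO livers Insr was 1.42-fold higher than in refed WT livers (log2 fold change 0.51, SE 0.12, adjusted p = 0.0206). It did not pass without refed mouse 1 or 2, which leaves 1 refed liver. Over 19 alternatives 15 passed, and the log2 fold change ran from 0.41 to 0.55. For WT Fasting against WT Refed livers the log2 fold change of Insr ran from 0.36 to 0.47 over the 19 alternatives. Between the fasted groups the log2 difference was 0.074, with a 95% interval of -0.15 to 0.29.

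**Figure D2:**
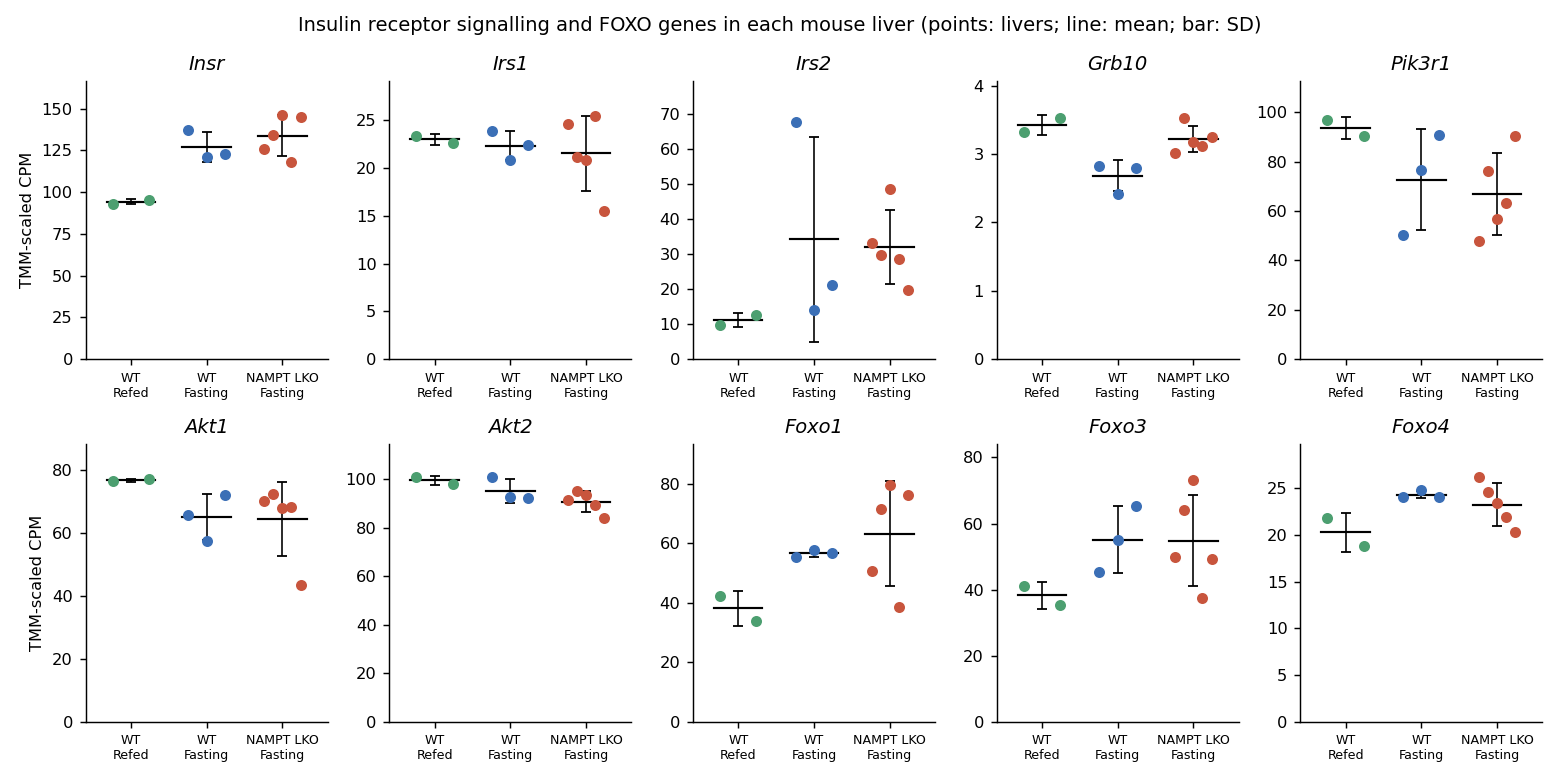
TMM-scaled CPM (y axis, from 0) of the 10 genes in each liver by group; points are livers, the line is the mean and the bar the SD. Insr separates the fasted from the refed livers with little spread, Irs2 is spread from 13.9 to 67.9 CPM within WT Fasting livers, and Akt1 has 1 low liver, NAMPT LKO mouse 5 at 43.4 CPM.

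Irs2, the docking protein whose liver RNA is known to be induced by fasting and repressed by insulin, had the largest fold difference of the members. The gene lies on chromosome 8 from 10986980 to 11008458 on the minus strand. Its level was 9.64 and 12.5 CPM in the refed livers, 67.9, 13.9 and 21.1 in the WT Fasting livers and 33.1, 29.8, 48.7, 28.5 and 19.9 in the NAMPT LKO Fasting livers. Every fasted liver was above both refed livers, but WT Fasting mouse 2 was barely so and WT Fasting mouse 1 was far above all others. The log2 fold change of 1.63 (SE 0.59, 3.1-fold) therefore had an adjusted p of 0.125, and without WT Fasting mouse 1 it was 0.65 with an adjusted p of 0.35, among 19 alternatives that ran from 0.045 to 0.461. NAMPT LKO livers against the same refed livers gave 2.89-fold (log2 fold change 1.53, SE 0.55, adjusted p = 0.104). In the fasted groups the means were 34.3 ± 29.3 (SD, n = 3) and 32 ± 10.5 (SD, n = 5), and the log2 difference of -0.099 had an interval of -1.06 to 0.87, which leaves room for differences of close to 2-fold either way; without WT Fasting mouse 1 it turned to 0.87.

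Irs1, the other main docking protein (chromosome 1 from 82233101 to 82291416, minus strand), did not follow Irs2. It was at 23.4 and 22.6 CPM in refed livers, 23.9, 20.8 and 22.4 in WT Fasting livers and 24.6, 21.2, 20.9, 25.5 and 15.5 in NAMPT LKO Fasting livers. The groups overlapped in all comparisons, and the lowest value came from NAMPT LKO mouse 5. The log2 difference of WT Fasting from WT Refed livers was -0.038, with an interval of -0.45 to 0.37.

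The promoters of both docking protein genes hold the core of the insulin response element, CAAAACA, known from the promoter of the FOXO target gene Igfbp1, and all 3 promoters are shown to set the docking protein genes beside this reference. RefSeq's promoter table (GRCm38.p6) matched 8 of the 10 members; Insr and Foxo4 were not matched. Each sequence is the 250 bases before the annotated start, read 5′ to 3′ on the gene's strand, and capitals mark CAAAACA or its reverse complement TGTTTTG. They lie at chr8:11008930-11009179 (Irs2, minus strand), chr1:82291440-82291689 (Irs1, minus strand) and chr11:7197537-7197786 (Igfbp1, plus strand).
Irs2: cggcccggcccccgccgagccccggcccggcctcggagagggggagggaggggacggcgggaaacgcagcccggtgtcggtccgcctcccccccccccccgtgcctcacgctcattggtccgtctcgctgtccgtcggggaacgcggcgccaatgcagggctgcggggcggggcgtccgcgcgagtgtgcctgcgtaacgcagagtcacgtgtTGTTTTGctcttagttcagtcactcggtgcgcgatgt
Irs1: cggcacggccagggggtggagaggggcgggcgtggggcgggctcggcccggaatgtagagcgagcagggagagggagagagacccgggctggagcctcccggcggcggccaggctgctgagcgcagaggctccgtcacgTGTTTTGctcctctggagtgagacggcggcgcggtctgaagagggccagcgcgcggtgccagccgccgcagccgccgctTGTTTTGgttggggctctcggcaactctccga
Igfbp1: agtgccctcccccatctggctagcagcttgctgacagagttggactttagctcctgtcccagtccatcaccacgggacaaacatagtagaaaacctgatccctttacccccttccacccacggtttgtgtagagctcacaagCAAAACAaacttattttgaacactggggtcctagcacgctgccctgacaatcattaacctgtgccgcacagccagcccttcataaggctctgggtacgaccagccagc

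The Irs2 window held 1 copy, 37 bases before the start, and the Irs1 window 2 copies, 111 and 32 bases before it. The Igfbp1 window held 1 copy at 108 bases, and that of G6pc, not printed, 1 copy at 174 bases. These distances are from RefSeq's start. For Irs2 and Irs1 it lies upstream of the start in the gene coordinates given above, 11008458 and 82291416. The letters CAAAACA on either strand are in 5.56% of the 32851 promoters of the table. They are in those of 2 of the 8 matched members, whose promoters made up 14 windows. The FOXO site GTAAACA (reverse complement TGTTTAC), which ends in the same AAACA but of which no match counts for both, is in 3.17% of all promoters and in 1 member's, that of Akt1, 161 bases before the start. A match of letters is a description and not a binding site.

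Grb10, an adaptor that binds the receptor and inhibits it (chromosome 11 from 11930508 to 12038683, minus strand), was the least abundant member, with 78 to 153 reads per library. It was at 3.32 and 3.53 CPM in refed livers, 2.83, 2.42 and 2.79 in WT Fasting livers and 3.02, 3.53, 3.17, 3.12 and 3.25 in NAMPT LKO Fasting livers. The 3 WT Fasting livers were the lowest of all 10. Neither the log2 difference of -0.35 from refed livers (SE 0.19, adjusted p = 0.299) nor that of 0.26 between NAMPT LKO and WT Fasting livers (SE 0.15, adjusted p = 0.837) passed the test.

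Pik3r1 (chromosome 13 from 101680563 to 101768217, minus strand), which encodes the regulatory subunits of phosphoinositide 3-kinase, was spread widely among the fasted livers. Its level was 96.8 and 90.4 CPM in refed livers, 50.4, 76.8 and 91 in WT Fasting livers and 48, 76.2, 56.7, 63.1 and 90.3 in NAMPT LKO Fasting livers. WT Fasting mouse 1, the highest for Irs2, was the lowest of its group for Pik3r1. The log2 fold change of WT Fasting against WT Refed livers was -0.36 (SE 0.27, adjusted p = 0.471), and that of NAMPT LKO Fasting against WT Refed livers -0.49 (SE 0.25, adjusted p = 0.244).

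The AKT kinases read slightly lower in fasted livers. Akt2, the main isoform of insulin-responsive tissues (chromosome 7 from 27591552 to 27640826, plus strand), was at 101 and 98.3 CPM in refed livers, 101, 92.9 and 92.2 in WT Fasting livers and 84 to 95.1, median 91.4, in NAMPT LKO Fasting livers. Its log2 differences were -0.067 for WT Fasting against WT Refed livers (interval -0.29 to 0.16) and -0.072 between the fasted groups (interval -0.25 to 0.11), and these intervals were the narrowest of the members for the fasted groups. Akt1, the more widely expressed isoform (chromosome 12 from 112653821 to 112674884, minus strand), was at 76.4 and 77.1 CPM in refed livers, 65.8, 57.5 and 72 in WT Fasting livers and 70.1, 72.4, 68, 68.3 and 43.4 in NAMPT LKO Fasting livers. All fasted livers were below the refed ones, by 1.18-fold on average in WT livers (log2 fold change -0.24, SE 0.20, adjusted p = 0.518). Between the fasted groups the log2 difference was -0.015 and, without NAMPT LKO mouse 5, 0.097.

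The 3 FOXO genes were all higher in WT Fasting than in WT Refed livers, by amounts that did not pass the test. Foxo1, the main FOXO factor of hepatic glucose production (chromosome 3 from 52268337 to 52350109, plus strand), was at 42.4 and 33.9 CPM in refed livers, 55.3, 57.9 and 56.7 in WT Fasting livers and 50.7, 71.5, 79.5, 38.6 and 76.2 in NAMPT LKO Fasting livers. The WT Fasting livers lay close together above the refed ones, while NAMPT LKO mouse 4 fell between the refed values and the other NAMPT LKO livers reached higher. The log2 fold changes against refed livers were 0.57 in WT Fasting (SE 0.27, a 1.48-fold difference, adjusted p = 0.24) and 0.73 in NAMPT LKO Fasting livers (SE 0.25, 1.66-fold, adjusted p = 0.09); the latter came to an adjusted p of 0.0194 without NAMPT LKO mouse 4, the lowest of 19 alternatives that reached up to 0.508.

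Foxo3 (chromosome 10 from 42181841 to 42276755, minus strand) was at 41.1 and 35.4 CPM in refed livers, 45.2, 54.9 and 65.4 in WT Fasting livers and 50, 64, 73.2, 37.6 and 49.4 in NAMPT LKO Fasting livers. As with Foxo1, NAMPT LKO mouse 4 alone among the fasted livers fell within the refed range. The difference was 1.44-fold in WT Fasting (log2 fold change 0.53, SE 0.25, adjusted p = 0.247) and 1.43-fold in NAMPT LKO Fasting livers (log2 fold change 0.52, SE 0.24, adjusted p = 0.19). Foxo4 (chromosome X from 101254528 to 101260873, plus strand), another member of the family, was at 21.8 and 18.8 CPM in refed livers, 24.1, 24.8 and 24.1 in WT Fasting livers and 20.3 to 26.2, median 23.4, in NAMPT LKO Fasting livers. Its 1.2-fold difference of WT Fasting from WT Refed livers (log2 fold change 0.26, SE 0.13) had an adjusted p of 0.283. NAMPT LKO against WT Fasting livers gave log2 differences of 0.16 for Foxo1 (interval -0.31 to 0.63), -0.0087 for Foxo3 (interval -0.45 to 0.43) and -0.062 for Foxo4 (interval -0.30 to 0.17).

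Levels of different genes were compared per length, as TMM-scaled RPKM (CPM per kilobase of gene length). In refed livers Akt1 led with 18.7 ± 0.125 RPKM (SD, n = 2), followed by Akt2 at 14 ± 0.307, and then by Insr at 9.78 ± 0.163 and Pik3r1 at 9.29 ± 0.445, which did not overlap but lay close together. Foxo1 (6.87 ± 1.09), Foxo4 (5.82 ± 0.593) and Foxo3 (5.05 ± 0.529) came next, with neighbours that overlapped or nearly so, then Irs2 at 2.75 ± 0.507 and Irs1 at 2.51 ± 0.055, which overlapped, and Grb10 at 0.377 ± 0.0164. In WT Fasting livers Akt1 was also the highest at 15.9 ± 1.78 RPKM (SD, n = 3), and Insr, at 13.2 ± 0.938, was level with Akt2, at 13.4 ± 0.676. Foxo1 at 10.2 ± 0.234 was above Pik3r1 at 7.22 ± 2.05, and Irs2 at 8.52 ± 7.28 was apart from Irs1 at 2.45 ± 0.168. These orders are descriptions and depend on the gene models. The deposited models of 7 members have the same exonic length as GENCODE vM21, but those of Insr (9633 against 13746 bases), Irs2 (4024 against 6323) and Foxo1 (5552 against 8665) are shorter. Reads in the added bases were not counted, so the place of these 3 among the other genes is uncertain.

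**Figure D3:**
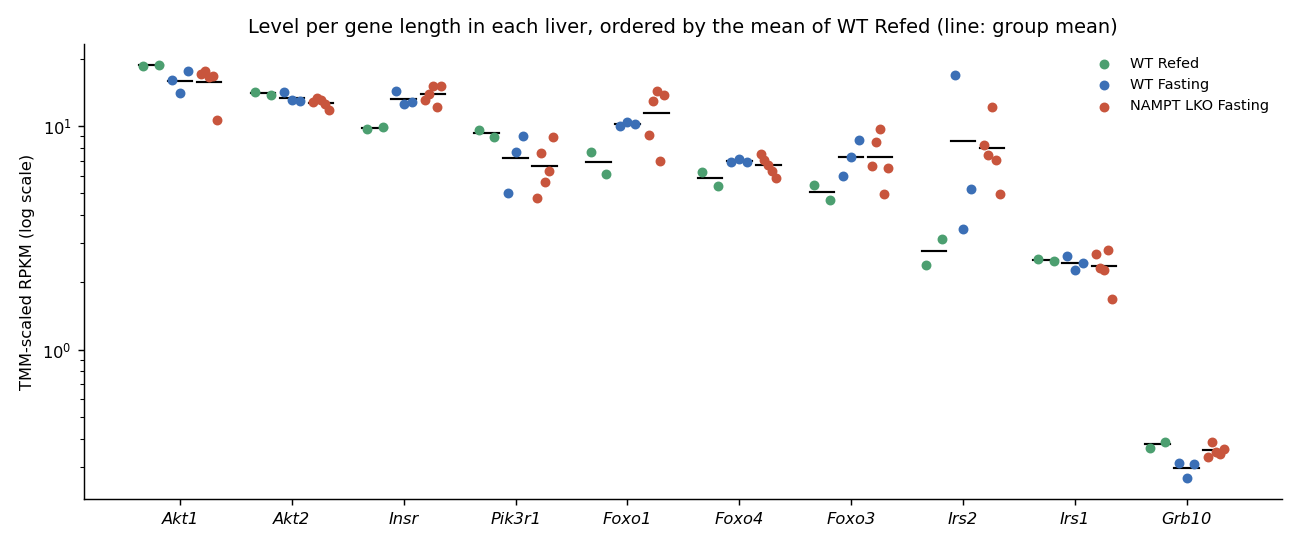
TMM-scaled RPKM (y axis, log scale) of each gene in each liver, with genes ordered by their mean in WT Refed livers; the line is the group mean. Akt1 is first and Grb10 last in refed livers, and Irs2 lies beside Irs1 in refed livers and above it in all fasted livers.

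Ratios of related genes within a liver do not depend on how libraries were scaled. The ratio of Irs2 to Irs1 RPKM was 0.938 and 1.26 in the refed livers, 6.45, 1.51 and 2.13 in the WT Fasting livers and 3.06, 3.2, 5.31, 2.54 and 2.92 in the NAMPT LKO Fasting livers. The ratio was higher in all 8 fasted livers than in both refed livers, an order that does not depend on gene length, while its size does, as stated above for Irs2. The 5 NAMPT LKO livers averaged 3.41 ± 1.09 (SD, n = 5) and the WT Fasting livers 3.37 ± 2.69 (SD, n = 3). By contrast, the ratio of Akt2 to Akt1 was 0.733 to 0.763 in refed livers, 0.736 to 0.929 in WT Fasting livers and 0.749 to 0.792 in 4 NAMPT LKO livers, with 1.11 in mouse 5. The ratio of Foxo1 to Foxo3 was 1.31 to 1.41, 1.18 to 1.67 and, in NAMPT LKO livers, 1.38 to 2.11, its highest value again in mouse 5; the groups overlapped for both ratios.

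**Figure D4:**
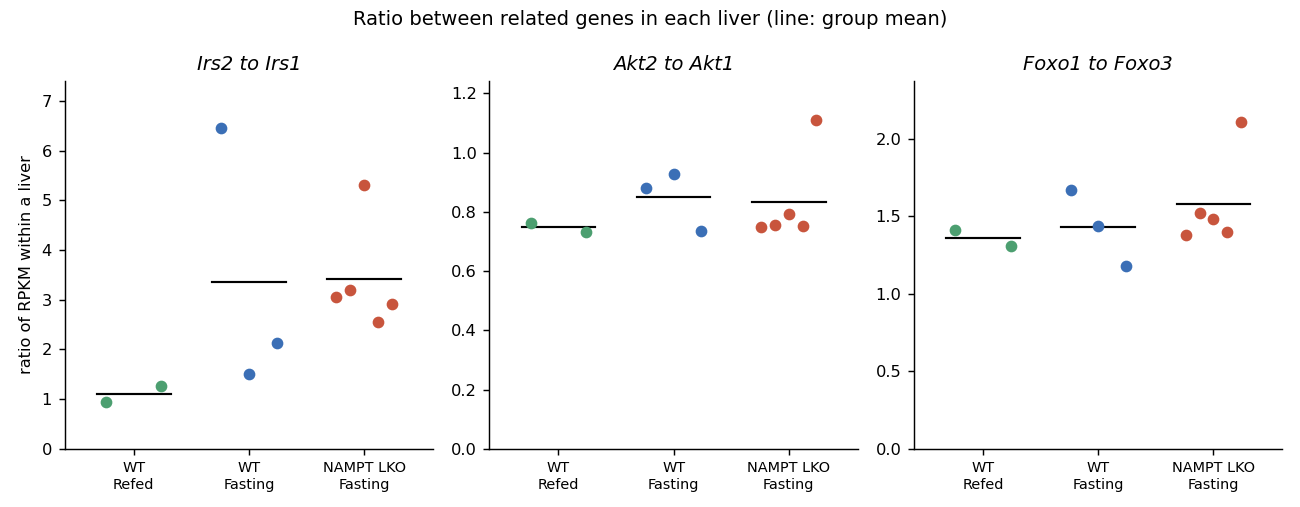
Ratio of RPKM within each liver (y axis, from 0) for Irs2 to Irs1, Akt2 to Akt1 and Foxo1 to Foxo3 by group; points are livers and the line is the mean. Only the Irs2 to Irs1 ratio keeps the refed livers, at 0.938 and 1.26, apart from all fasted livers, at 1.51 to 6.45, and NAMPT LKO mouse 5 is highest of its group in the other 2 ratios.

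The members differed widely in how much mice of a group varied. The SD of log2 CPM within groups was 0.72 for Irs2, higher than in 98.1% of the genes tested, and 0.36 for Pik3r1, 0.35 for Foxo1 and 0.32 for Foxo3, against a median of 0.23 over all genes. It was 0.066 for Akt2, 0.081 for Grb10, 0.11 for Insr and 0.12 for Foxo4, the first of these lower than in all but 1.08% of genes. Over the 8 fasted livers the highest level was 4.89-fold the lowest for Irs2 and 1.2-fold for Akt2, with Insr at 1.23-fold.

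Among the 45 pairs of members, no correlation over the 8 fasted livers of both genotypes passed adjustment. The smallest adjusted p was 0.365 for Pearson's r and 0.326 for Spearman's rho (exact permutation test). Correlations within a genotype, with 3 and 5 livers, are not reported here. Irs2 and Pik3r1 ran in opposite directions (r = -0.76, permutation p = 0.0281; rho = -0.81, permutation p = 0.0218; r = -0.79 without the 2 livers farthest from the median Irs2 level, and -0.74 without NAMPT LKO mouse 5). Irs1 and Foxo1 did so as well (r = -0.76, permutation p = 0.0276; rho = -0.88, permutation p = 0.00724; r = -0.77 without the 2 livers farthest from the median Irs1 level, and -0.86 without NAMPT LKO mouse 5). The correlations of Irs1 with Akt1 (r = 0.84, permutation p = 0.0405; rho = 0.52, permutation p = 0.197) fell to 0.29 without the 2 livers farthest in Irs1 and to 0.27 without NAMPT LKO mouse 5, and thus rested on those livers. Insr and Foxo1 ran together (r = 0.82, permutation p = 0.0134; rho = 0.71, permutation p = 0.0576; r = 0.61 without the 2 livers farthest in Insr and 0.78 without NAMPT LKO mouse 5). So did Foxo1 and Foxo3 (r = 0.74, permutation p = 0.0363; rho = 0.64, permutation p = 0.0962). Their r was 0.20 without the 2 livers farthest in Foxo1 and 0.90 without NAMPT LKO mouse 5. These 5 were the pairs with an unadjusted p under 0.05 for r, and the adjusted p was 0.365 for each.

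Among 9171 genes averaging 5 CPM or more, those whose log2 CPM over the 10 libraries ran most like that of Insr, the member with the lowest p in WT Fasting against WT Refed livers, were Rabgef1 (Pearson's r = 0.972), 4732465J04Rik (0.968) and Grpel2 (0.962). Rabgef1, which encodes a Rab5 exchange factor of early endosomes, averaged 10.8 CPM in WT Refed, 17.7 in WT Fasting and 18.8 in NAMPT LKO Fasting livers. Grpel2, which encodes a mitochondrial protein import cofactor, averaged 20.2, 43.5 and 46.4 CPM, and 4732465J04Rik 6.56, 11.4 and 13.4 CPM. They were picked for this likeness from many genes, so their values are a description.

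The wider pathway was read in 7 lists with 91 other genes, 87 of them tested. In WT Fasting against WT Refed livers 10 were higher and 4 lower past the threshold, 14 of 87 where 7.04% of all genes passed, and the median log2 fold change was 0.13 against 0.037 over all genes. By list, none of the 16 tested regulators at the receptor, none of the 12 AKT substrates and mTORC1 genes, and 1 each of the 12 phosphoinositide 3-kinase and lipid phosphatase genes and the 12 AKT kinases, activators and brakes passed. At an unadjusted p under 0.05 these lists had 2, 1, 3 and 4 genes, where 22.3% of all genes had one. Inpp5k, a phosphatase that removes the lipid signal, was 1.51-fold higher (log2 fold change 0.60, SE 0.16, adjusted p = 0.0485), at 13.1 against 8.65 CPM. Trib3, a pseudokinase that binds and restrains AKT, was 2.15-fold higher (log2 fold change 1.11, SE 0.26, adjusted p = 0.0273), at 10.7 against 4.99 CPM.

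The list of FOXO-induced liver genes held 17 genes, and FOXO activity itself was not measured. Of the 17, 6 were higher and 1 lower past an adjusted p of 0.05 in WT Fasting than in WT Refed livers, where 7.04% of all genes passed. In all, 13 of the 17 had a log2 fold change above 0, against 7209 of the 13444 genes tested. The groups did not overlap for 9 higher and 2 lower genes. Of all genes tested, 24.5% were higher without overlap, and 49.7% did not overlap in either direction. The excess over these shares was not tested. Igfbp1, a secreted binding protein of insulin-like growth factors, was at 0.761 to 1.75 CPM in refed and 91.3 to 563 CPM in WT Fasting livers. G6pc and Pck1, which encode enzymes of glucose production, were higher by 9.28-fold (log2 fold change 3.21, SE 0.50, adjusted p = 0.00444) and 2.65-fold (log2 fold change 1.41, SE 0.17, adjusted p = 0.00138). Pdk4, an inhibitor of glucose oxidation, was higher by 3.00 on the log2 scale, Ccng2, a cyclin of growth arrest, by 2.42, and Txnip, an inhibitor of glucose uptake, by 1.34. Trib1, a pseudokinase, was 1.92-fold lower (log2 fold change -0.94, SE 0.21, adjusted p = 0.0213). Gadd45a, a growth arrest gene, had the lowest log2 fold change of the list at -1.54 (SE 0.48) and did not pass (adjusted p = 0.0787). The median of the list was 0.63.

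Of 11 tested FOXO regulators and cofactors, 2 were higher and 2 lower past an adjusted p of 0.05 in the fasted WT livers, where 7.04% of all genes passed. In all, 4 of the 11 had a log2 fold change above 0, against 7209 of the 13444 genes tested. The groups did not overlap for 3 higher and 5 lower genes, where 49.7% of all genes did not overlap and 24.5% were higher without overlap. These differences in share were not tested. Sirt1, a NAD-dependent deacetylase of FOXO1, was higher by 1.55-fold (log2 fold change 0.63, SE 0.15, adjusted p = 0.0335), and Cdk2, a kinase that phosphorylates FOXO1, by 2.27-fold (log2 fold change 1.18, SE 0.28, adjusted p = 0.0271). Skp2, which marks FOXO1 for degradation, was lower by 2.03-fold (log2 fold change -1.02, SE 0.27, adjusted p = 0.0486), and Foxa2, a forkhead factor of fasting metabolism, by 2.13-fold (log2 fold change -1.09, SE 0.27, adjusted p = 0.035). The calls over the 7 lists rest on 2 refed livers, and a fit without either leaves only 1. With all mice 14 of the 87 genes passed, and without WT Fasting mouse 1, 2 or 3, 7, 7 and 9 did. The NAMPT LKO mice are in neither group and enter through the shared fit. Without NAMPT LKO mouse 1, 2, 3, 4 or 5, the number passing was 13, 9, 11, 13 and 21.

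**Figure D5:**
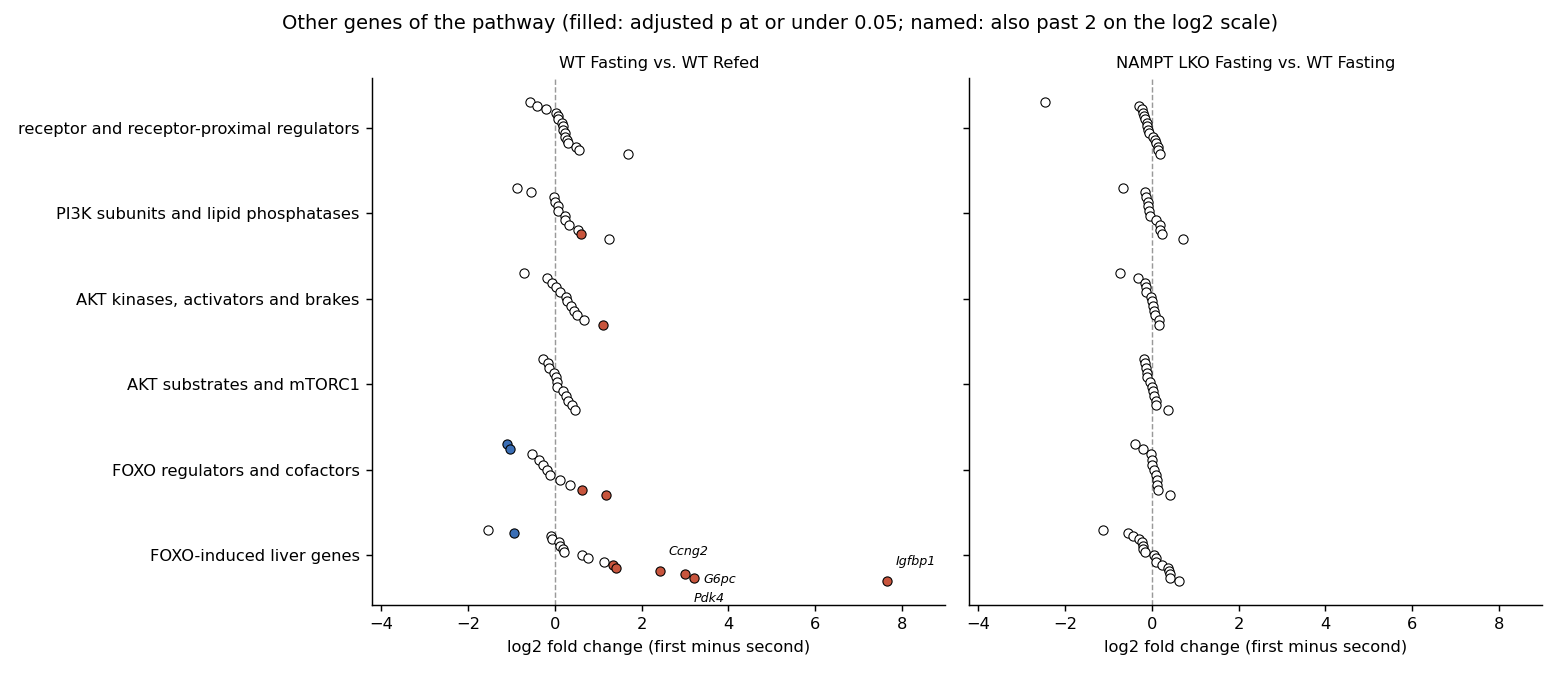
Log2 fold change (x axis, first group minus second) of the tested genes in 6 lists of the wider pathway (y axis); filled points passed an adjusted p of 0.05, red for higher and blue for lower. In WT Fasting against WT Refed livers Igfbp1 at 7.65, G6pc, Pdk4 and Ccng2 are farthest right, and in NAMPT LKO Fasting against WT Fasting livers no point is filled.

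With NAMPT loss in the fasted state, none of the 87 genes passed by edgeR, DESeq2 or voom, and 4 had an unadjusted p under 0.05, where 6.03% of all genes had one. These 4, named after their values were seen, were Socs1 (log2 fold change -2.45), Mlst8 (-0.73), Bcl6 (-1.13) and Trib1 (0.38), with adjusted p of 0.761 to 0.827. The Socs1 groups overlapped, at 0.118 to 0.954 CPM in NAMPT LKO and 0.248 to 5.78 CPM in WT Fasting livers, whose mean of 2.19 ± 3.11 (SD, n = 3) was set largely by the highest liver. Bcl6, a repressor on the FOXO-induced list, was at 10.1 to 20.2 CPM in NAMPT LKO and 27.4 to 36.8 in WT Fasting livers, without overlap. Its WT Refed livers were at 5.9 to 32.5 CPM. Mlst8 did not overlap either, at 1.63 to 2.3 CPM in NAMPT LKO and 3.04 to 3.6 in WT Fasting livers. Over the 87 genes the fasted groups did not overlap for 1 higher and 2 lower, where 3.99% of all genes did not overlap. Of the genes called between WT Fasting and WT Refed livers, Igfbp1 was at 79.7 to 316 CPM in NAMPT LKO against 91.3 to 563 in WT Fasting livers, G6pc at 246 to 392 against 182 to 668, and Pck1 at 3024 to 4362 against 3871 to 4631. The median log2 fold change over the 87 genes was 0.0074, against 0.00025 over all genes. Against the refed livers, which this comparison shares with the WT one, NAMPT LKO Fasting livers had 12 genes higher and 4 lower past the threshold, where 11.2% of all genes passed, and 27 passed without NAMPT LKO mouse 5, 6 without refed mouse 1 and 4 without refed mouse 2.

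Other genes in the annotation overlap exons of 3 members: Gm9747 opposite Irs1, 9530052E02Rik opposite Irs2 and Gm20402 opposite Foxo1. Whether counting used strand was not given in the sources used here. These genes had 0, 2 and 0 reads over all 10 libraries.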

How the data were processed

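Liver poly-A RNA was sequenced as single reads of 50 bases. Per the labels, the authors aligned reads to GRCm38 with STAR 2.5.1a and counted them per gene with featureCounts 1.4.6-p5, and deposited, per gene and library, the count, the CPM (the count scaled to the library's total) and the RPKM (CPM per kilobase of the listed gene length). The deposited counts were used for all tests; CPM and RPKM shown here were recomputed from them with TMM scaling. Groups came from sample titles. The main test was edgeR's quasi-likelihood test (edgeR 4.0.16, R 4.3.3) with genes over 1 CPM in at least 1 library, rRNA genes left out, all 10 libraries in 1 fit, and Benjamini-Hochberg adjustment over the 13444 genes tested; a gene was called at an adjusted p of 0.05 or less. Intervals are 95% intervals of this fit. The fit was also run on simulated counts, and the outcome of that run is not reported here. Log2 values for correlations used a pseudocount of 0.5. Animals are separate mice, and with groups of 2, 3 and 5 their number limits precision. The members, the lists and the tests were chosen with earlier results of these data known. All members were described. Of the lists, apart from the insulin-induced one, genes called in either of the first 2 comparisons were named. Gadd45a was named for the lowest log2 fold change of its list. Between the fasted groups, the 4 genes with an unadjusted p under 0.05 (edgeR) were named. The genes of the insulin-induced list enter the counts over all lists, and that list is otherwise not reported here. The alternatives were DESeq2 1.42.0 and its size factors, library size alone, other filters, edgeR's exact test, limma 3.58.1 (voom with quality weights), fits of only the groups compared, removal of the trend with GC content, a replicate block, and leaving out each mouse.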

Additional observations from a re-analysis of the deposited data

Results flagged for a closer look

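Akt1 in NAMPT LKO mouse 5 stood apart from the other 4 livers of its group: it was at 43.4 CPM against 68 to 72.4, a gap to the nearest of 0.848 of the group's range, where the 95% limit for 5 values is 0.71. It was the 1 value past this limit among the 10 members in the NAMPT LKO Fasting group, and chance alone passes it in about 1 in 20 groups. The same library had the GC gradient and the mitochondrial share given above, and their part in the low Akt1 value was not tested.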

How the results depend on the processing

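For WT Fasting against WT Refed livers, in which no member passed, 1 passed with no filter beyond 1 count (Irs2), 1 with DESeq2 and 1 with the GC trend removed (Insr both times), and 2 with voom (Insr, Akt1) and with only the 2 groups compared (Insr, Foxo1); leaving out single mice gave 0 to 1. The 14 pathway genes became 9 with library size alone and 33 with voom, and 2 to 21 with single mice left out. For NAMPT LKO Fasting against WT Refed livers, the 1 member became 0 with library size alone, 2 with DESeq2 (Insr, Foxo1), 5 with voom, 2 with only the 2 groups compared (Insr, Irs2) and 0 to 2 with single mice left out; the 16 pathway genes became 40 with voom and 4 to 27 with single mice left out. No member or pathway gene passed between the fasted groups in any of 21 alternatives. The causes were not tested.

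In that comparison uncalled log2 differences near 0 changed sign. With voom they were 0.016 for Irs1, 0.40 for Irs2, 0.15 for Akt1 and 0.082 for Foxo3. With the GC trend removed they were 0.10 for Akt1, 0.025 for Akt2, 0.068 for Foxo3 and 0.031 for Foxo4. With single mice left out, log2 differences ran from -0.13 to 0.04 for Irs1, -0.47 to 0.87 for Irs2, -0.33 to 0.071 for Pik3r1, -0.097 to 0.097 for Akt1 and -0.14 to 0.13 for Foxo3. Irs1 against refed livers ran from -0.098 to 0.011 in WT Fasting and from -0.16 to 0.0041 in NAMPT LKO Fasting livers. Replicate numbers 1 to 3 are shared by both fasted groups but belong to different mice. Same-numbered deviations correlated at 0.0987, 0.173 and 0.129 against -0.14 to -0.0215 for others, so that every liver went best with its own number. Deviations from the mean of 3 livers sum to 0, so values above 0 for same-numbered livers push the others below 0. This order was not tested. The replicate block over these 6 livers called 0 members and 0 pathway genes, with log2 differences of 0.44 for Irs2, 0.11 for Akt1, 0.18 for Foxo3 and 0.024 for Foxo4, against 0.12, 0.11, 0.18 and 0.026 for the same 6 livers without the block.

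A member that missed the threshold is not shown to be equal between groups, and with 2, 3 and 5 mice its interval gives the range of differences that remains.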
